A study of Homo sapiens with 4 samples.

Results

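The genes described here are 10 secreted factors linked to cellular stress: GDF15, INHBE, INHBA, FGF21, STC1, STC2, VEGFA, ANGPTL4, ADM and ADM2. They were taken by name from 18417 genes with a probe set of their own on the Human Gene 1.0 ST platform, which reads each transcript with many short probes and 1 dye. All 10 were measured, each by 1 probe set, so the choice of the brightest probe set per gene left nothing to choose. The list was drawn up with results of these arrays known, and GDF15 was on it partly for the size of its rise, so every difference given for the 10 genes is a description and carries no test of its own.

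RNA came from MiaPaCa2, a line derived from a human pancreatic carcinoma, given LY101-4B at 50 µM (2 arrays) or vehicle (2 arrays) for 24 h. LY101-4B is described by the series as blocking E2F, a group of transcription factors needed to enter S phase, and the question was the line's sensitivity to it. Titles, agent labels and design text give this code and dose, whereas a protocol field on all 4 samples names LY101-4D at 25 µM. All cells were 1 line with no genetic change or other agent in the labels, and the vehicle's composition is not given in the sources used here. The design calls the 2 samples of a group biological replicates without saying how they were separated. The p-values below set each difference against the spread between these samples, with variance information shared across probe sets. Values are log2 RMA values, and array medians lay between 5.88 and 5.97. Across all tested probe sets r was 0.994 between the LY101-4B arrays, 0.997 between the vehicle arrays and 0.978 to 0.981 between groups. The keratin genes KRT8 and KRT18 and the vimentin gene VIM, markers of this epithelial-derived but mesenchymal-like line, read from 11.9 to 13.0 log2 units. The other two genes of that marker list, the E-cadherin gene CDH1 and the cell-cycle inhibitor gene CDKN2A, read from 4.44 to 4.63 and from 5.73 to 6.11 log2 units, and neither was called. KRT8 (-0.84) and KRT18 (-0.57) were called lower with LY101-4B. None (0) of 18 measured markers of endothelial, immune, fibroblast, liver, and acinar or islet cells was called, with differences from -0.25 to 0.22. A lack of difference does not show that a marker is absent. By level, CD68 (7.93 to 8.21), COL1A1 (6.88 to 7.02) and APOA1 (6.26 to 6.38) read above the array medians, and the other markers below.

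These factors leave the cell and act on others or on the body as a whole. GDF15 is a distant member of the TGF-beta superfamily that acts through the brainstem receptor GFRAL with RET and lowers food intake. INHBA and INHBE encode the subunits of activin A and activin E, which act through activin receptors and SMAD proteins, and FGF21 is an endocrine fibroblast growth factor that needs the co-receptor beta-Klotho (KLB). Stanniocalcins (STC1, STC2) were first known as calcium-regulating hormones of fish. VEGFA drives vessel growth, ANGPTL4 inhibits lipoprotein lipase, and ADM (adrenomedullin) and ADM2 are vasodilator peptides of the calcitonin family. Several of them are classic outputs of the integrated stress response, in which ATF4 and CHOP (DDIT3) are made when translation is curbed. VEGFA, ADM and ANGPTL4 are also induced by hypoxia-inducible factors, and ANGPTL4 and FGF21 by PPAR receptors.

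RefSeq promoter sequences (GRCh38.p14) were at hand for 7 of the 10 genes: GDF15, INHBA, FGF21, STC2, ANGPTL4, ADM and ADM2. The 250 bases before the transcript start were scanned. Those of 4 genes are shown as examples, picked with the array results known. INHBA, STC2 and ADM2, which are not shown, held motif matches too. Capitals mark motif matches. The GDF15 stretch is chr19:18385908-18386157, that of ANGPTL4 chr19:8363905-8364154, that of ADM chr11:10304823-10305072 and that of FGF21 chr19:48755274-48755523, all on the plus strand.
GDF15: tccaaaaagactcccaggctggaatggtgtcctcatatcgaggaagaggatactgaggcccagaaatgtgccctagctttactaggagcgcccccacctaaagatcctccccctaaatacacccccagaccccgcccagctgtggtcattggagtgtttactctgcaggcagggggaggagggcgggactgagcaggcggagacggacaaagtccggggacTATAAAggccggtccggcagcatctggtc
ANGPTL4: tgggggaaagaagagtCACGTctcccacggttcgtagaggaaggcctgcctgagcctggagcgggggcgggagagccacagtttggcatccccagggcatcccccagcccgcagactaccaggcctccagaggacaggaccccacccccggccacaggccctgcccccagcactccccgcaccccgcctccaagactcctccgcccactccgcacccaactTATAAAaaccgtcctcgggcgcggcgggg
ADM: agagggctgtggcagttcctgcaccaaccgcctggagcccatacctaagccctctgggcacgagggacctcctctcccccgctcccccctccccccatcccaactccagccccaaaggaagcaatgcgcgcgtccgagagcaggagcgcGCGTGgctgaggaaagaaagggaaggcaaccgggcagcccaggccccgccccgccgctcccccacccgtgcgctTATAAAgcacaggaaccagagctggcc
FGF21: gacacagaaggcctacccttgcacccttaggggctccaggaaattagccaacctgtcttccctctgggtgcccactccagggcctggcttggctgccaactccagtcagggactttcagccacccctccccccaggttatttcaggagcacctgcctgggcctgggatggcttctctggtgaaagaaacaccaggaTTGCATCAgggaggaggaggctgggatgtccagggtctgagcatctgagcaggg

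The TATA box letters TATAAA, sought on the gene's own strand, stood in 4 of the 7 promoters, compared with 6.08% of the 14237 promoters of genes on the array. They began 29 bases before the start in GDF15 and in ANGPTL4, 27 bases before it in ADM and 11 bases before it in INHBA. The composite C/EBP-ATF element, TGATGNAA on either strand, was present only in FGF21 among the 7, from 54 to 47 bases before its start, and in 2.19% of all promoters scanned. Hypoxia element cores, ACGTG or GCGTG on either strand, occurred in STC2, ANGPTL4, ADM and ADM2, that is in 4 of 7, against 51.1% of all promoters. STC2 held 3 of them, of which the first 2 overlap by 1 base, and the other three genes held 1 each. No match in these windows was found for the ATF/CRE letters TGACGT (8.74% of all promoters), the endoplasmic reticulum stress element (CCAAT and CCACG with 9 bases between them, 0.119%), the PPAR element (AGGTCA repeated with 1 base between, 0.014%) or the E2F letters TTTCCCGC, TTTCGCGC, TTTGCCGC and TTTGGCGC (3.75%), each on both strands. An ACGTG match can overlap a TGACGT match, and matches of different motifs did not overlap in these 7 windows. A match describes letters and is not evidence of binding, and the sequences are those of the reference, not of this line.

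**Figure D1:**
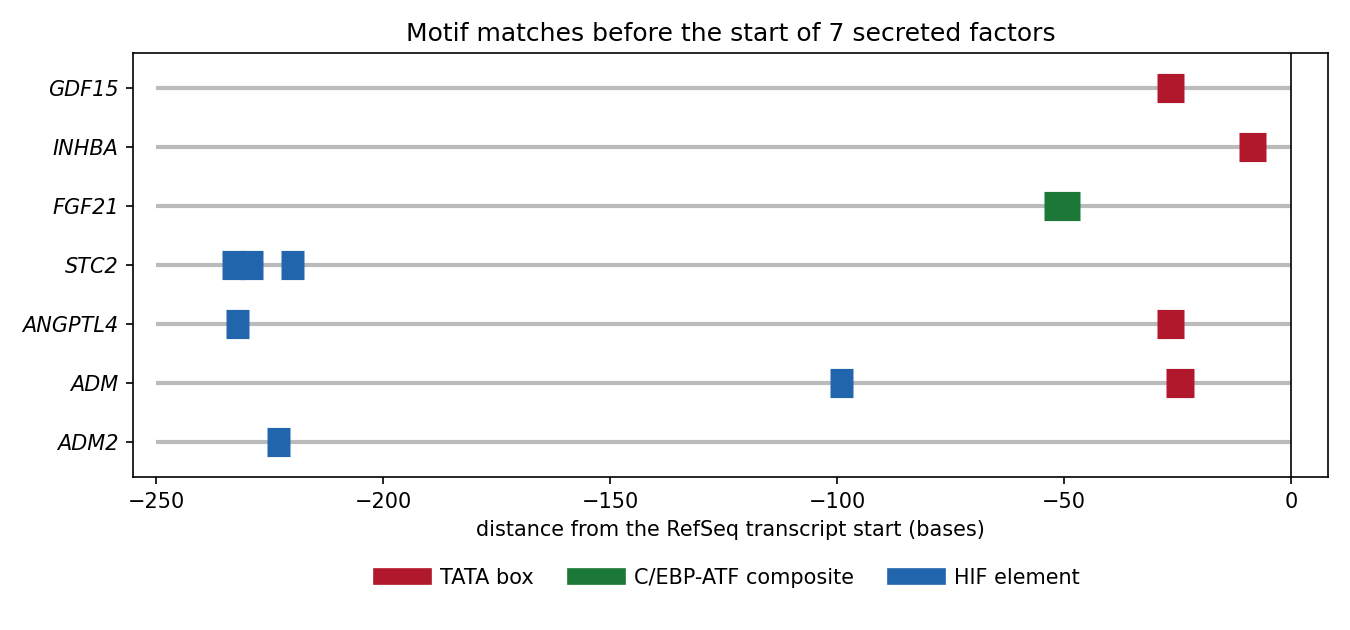
Motif matches along the 250 bases before the RefSeq transcript start of the 7 secreted factors with a promoter sequence; the horizontal axis is the distance from the start in bases and each coloured block is 1 match. The TATA boxes of GDF15, ANGPTL4 and ADM lie at 29 to 22 bases before the start, and the C/EBP-ATF composite stands in FGF21 alone.

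With LY101-4B the 10 factors split. GDF15, INHBE, VEGFA and STC1 rose, ADM fell, and INHBA, FGF21, STC2, ANGPTL4 and ADM2 did not pass. A probe set is called here when its limma p-value, adjusted by Benjamini-Hochberg over all 21214 gene-annotated probe sets, is under 0.05. By that rule 4 of 10 were called higher, against 9.1% of all tested probe sets, and 1 of 10 was called lower, against 10.5%. In either direction 19.6% of all tested probe sets were called. Since the list was chosen on this contrast, nothing is read from these shares. Over all tested probe sets 1930 were called higher and 2236 lower, or 1528 and 2731 with each array centred on its median. That median was taken over all 33297 rows, also those without a gene symbol. Such centring lowered every tested difference by the same amount, that of GDF15 from 4.01 to 3.95. The median difference of the 10 genes was 0.22 log2 units, beside 0.01 over all tested probe sets. Induction, which the usual grouping of these factors implies, was called for 4 of the 10 genes in these cells. That count is a description too, and a missing call does not show a lack of induction. RNA from a whole culture was measured, so a larger share of cells expressing a gene and more RNA per cell cannot be told apart.

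**Figure D2:**
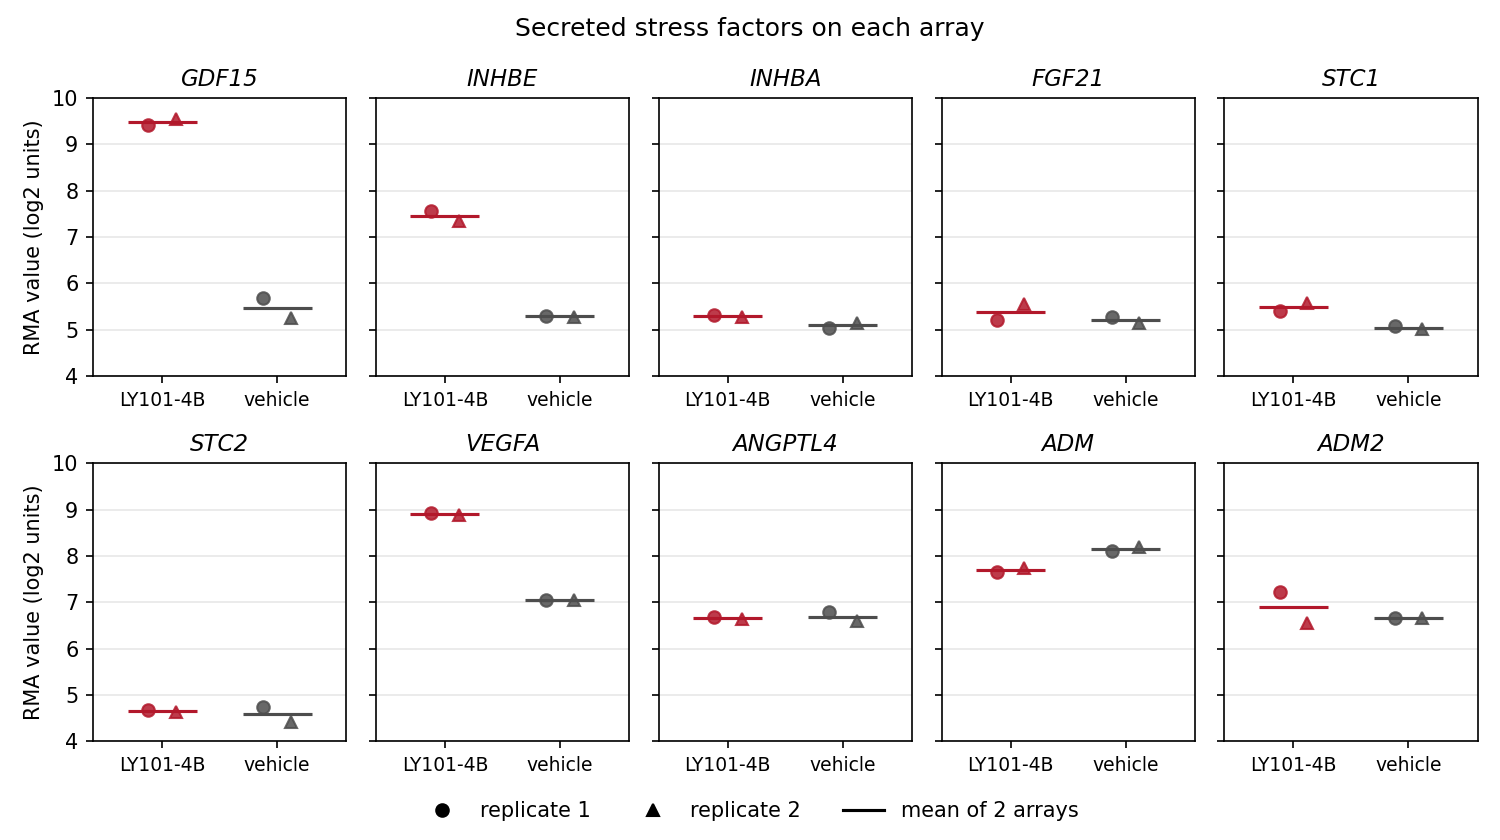
RMA value in log2 units (vertical axis) of each secreted factor on the 2 LY101-4B arrays and the 2 vehicle arrays, with circles for replicate 1, triangles for replicate 2 and a line at each mean. GDF15, INHBE and VEGFA lie well above vehicle with LY101-4B, ADM lies below it, and the 2 LY101-4B arrays of ADM2 read 7.23 and 6.55.

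Among the TGF-beta superfamily members, GDF15 moved most. GDF15 read 9.42 and 9.55 log2 units on the LY101-4B arrays, against 5.68 and 5.26 on the vehicle arrays. The lowest LY101-4B array stood 3.74 above the highest vehicle array, and the vehicle pair differed more (0.42) than the LY101-4B pair (0.13). The difference was 4.01 ± 0.15 log2 units (SE), or 16.1-fold, with a 95% interval from 3.63 to 4.40, and only 1 tested probe set rose further. INHBE, the activin E subunit gene known mainly from liver, read 7.56 and 7.34 with LY101-4B and 5.31 and 5.27 with vehicle. It rose by 2.16 ± 0.11 (SE), or 4.48-fold, and stood at rank 30 by size of rise. Its relative INHBA read 5.33 and 5.28 with LY101-4B and 5.05 and 5.15 with vehicle, a difference of 0.21 ± 0.09 (SE). The INHBA groups stood 0.13 apart without overlap, and the difference was not called. The 95% interval of the INHBA ratio of LY101-4B over vehicle ran from 0.989 to 1.345, below the whole interval of INHBE, from 3.74 to 5.37. No detection calls were at hand, so it is not known whether the vehicle values of GDF15 and INHBE, or any INHBA value, were above background. If they were not, the folds of GDF15 and INHBE would be understated.

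FGF21, the endocrine factor whose promoter holds the C/EBP-ATF element shown above, read 5.21 and 5.55 with LY101-4B and 5.29 and 5.14 with vehicle. The groups overlapped, since LY101-4B replicate 1 lay between the vehicle arrays. Its difference was 0.17 ± 0.14 log2 units (SE), not called, and the 95% interval of the ratio ran from 0.89 to 1.42. Larger rises than 1.42-fold in measured signal thus lie outside the interval, although a probe set near background can understate a change. The difference was -0.001 without LY101-4B replicate 2 and 0.34 without LY101-4B replicate 1, so its direction rests on 1 array.

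Of the stanniocalcins, STC1, on chromosome 8, rose by a small amount and STC2, on chromosome 5, did not pass. STC1 read 5.40 and 5.58 with LY101-4B and 5.07 and 5.01 with vehicle, without overlap. The difference was 0.45 ± 0.10 log2 units (SE), or 1.36-fold, and 16.9% of tested probe sets differed by more in either direction. STC1 was no longer called without LY101-4B replicate 2 (0.36) or without either vehicle array (0.48 without replicate 1 and 0.42 without replicate 2), or with arrays centred on their medians (0.38). STC2 read 4.69 and 4.64 with LY101-4B and 4.75 and 4.42 with vehicle, so both LY101-4B arrays lay inside the vehicle range. Its difference was 0.08 ± 0.13 (SE), and -0.09 without vehicle replicate 2. Every value of STC1 and STC2 lay below the array medians. These data cannot separate such low signals from background, so a change in either gene may be understated. The missing call for STC2 may thus reflect no change or no detectable signal.

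The angiogenic and lipid-regulating factors parted in the same way. VEGFA read 8.93 and 8.89 with LY101-4B and 7.06 and 7.05 with vehicle, the tightest replicates among the genes called higher. It rose by 1.86 ± 0.08 log2 units (SE), or 3.62-fold, at rank 52 by size of rise. The arrays summarise VEGFA over its many splice forms, so the isoforms cannot be told apart here. ANGPTL4 read 6.69 and 6.65 with LY101-4B and 6.79 and 6.60 with vehicle, with both LY101-4B arrays inside the vehicle range. Its difference was -0.02 ± 0.10 (SE), with a 95% interval from -0.28 to 0.23, and 0.07 without vehicle replicate 1.

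In the calcitonin family, ADM was the only gene of the 10 called lower. ADM read 7.65 and 7.74 with LY101-4B, against 8.10 and 8.20 with vehicle, and the groups stood 0.36 apart. It fell by 0.46 log2 units (-0.46 ± 0.09, SE), or 1.37-fold, and 16.3% of tested probe sets differed by more. ADM kept its direction but not its call without LY101-4B replicate 1 (-0.41), vehicle replicate 1 (-0.51) or vehicle replicate 2 (-0.41). ADM2, an ATF4-responsive gene, read 7.23 and 6.55 with LY101-4B but 6.66 on both vehicle arrays. LY101-4B replicate 1 lay above the vehicle pair and LY101-4B replicate 2 just below it. The difference of 0.23 ± 0.22 (SE) was therefore not called, and it was 0.57 without LY101-4B replicate 2, where it was called, and -0.11 without LY101-4B replicate 1.

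Over the 10 genes, 5 had non-overlapping groups with LY101-4B higher, against 28.5% of all tested probe sets, and 1 with LY101-4B lower. Non-overlapping groups in either direction were found for 58% of all tested probe sets. The other 4 genes, FGF21, STC2, ANGPTL4 and ADM2, had overlapping groups. GDF15, INHBE and VEGFA differed by more than 2-fold and were called without each single array in turn, with ranges of 3.80 to 4.22, 2.06 to 2.27 and 1.79 to 1.89 log2 units over all alternatives.

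**Figure D3:**
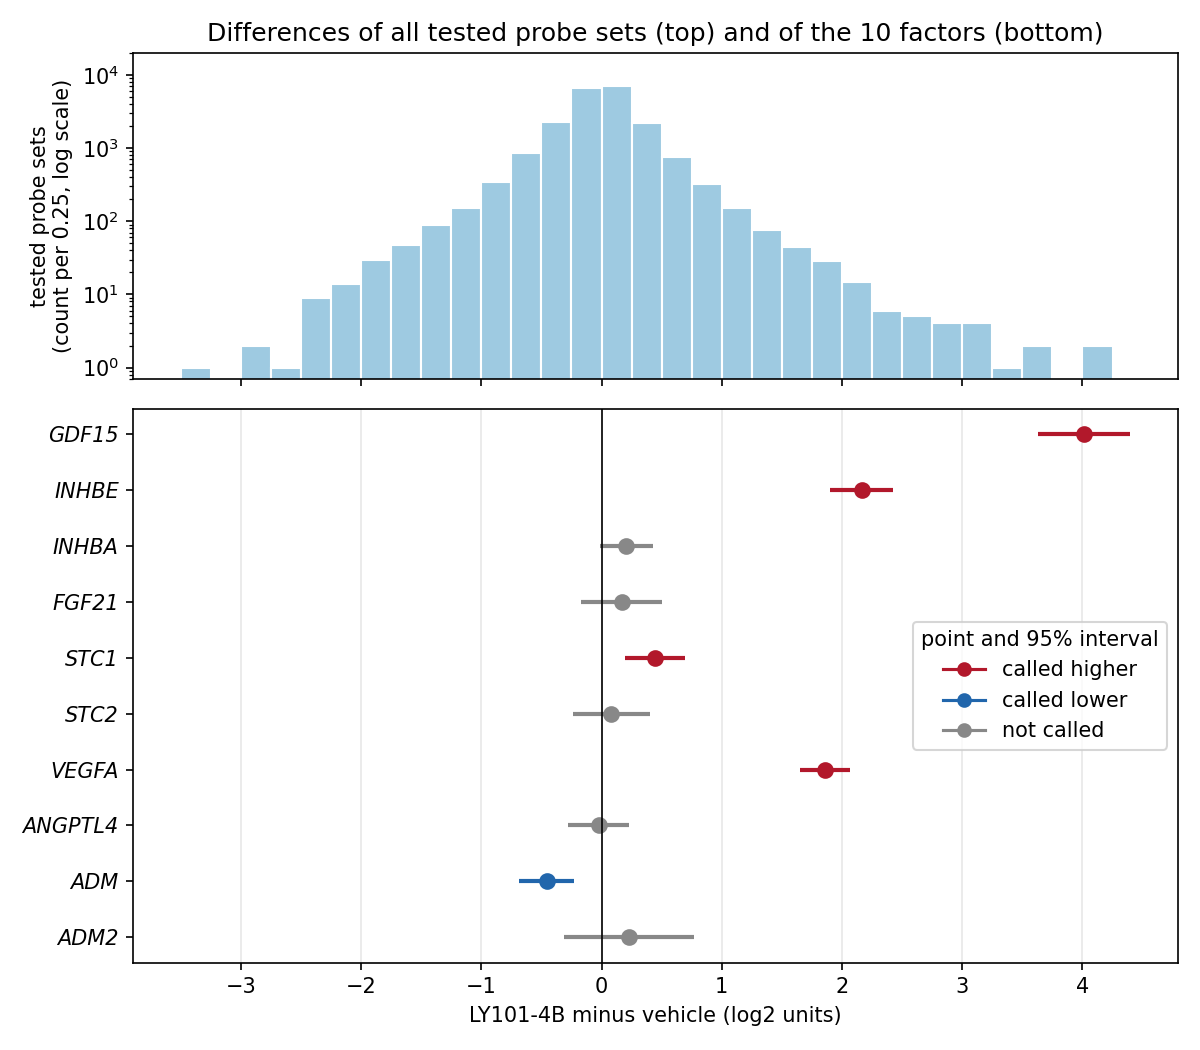
Difference of LY101-4B minus vehicle in log2 units (horizontal axis) for all 21214 tested probe sets as a histogram with a log count axis (top) and for the 10 secreted factors as points with 95% intervals (bottom), coloured by call. GDF15 at 4.01 lies at the far right of the histogram, and the intervals of 5 factors include 0.

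The genes whose values over the 4 arrays lay nearest to those of GDF15, after centring each gene on its own mean, were NIBAN1, DDIT3 and WIPI1. Their Euclidean distances over the 4 arrays were 0.38, 0.56 and 0.57 log2 units. NIBAN1, a stress-induced gene, read 10.0 and 10.2 with LY101-4B and 5.91 and 5.95 with vehicle. DDIT3, the CHOP gene, read 10.81 and 10.95 with LY101-4B and 7.29 and 7.35 with vehicle. WIPI1, an autophagy gene, read 11.1 on both LY101-4B arrays and 7.48 and 7.56 on the vehicle arrays. With 4 arrays in 2 groups this likeness is mostly likeness of the treatment difference.

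Transcription factors known to act upstream of these hormones mostly rose with LY101-4B. Of 18 measured, 14 were called higher, 0 lower, and HIF1A (-0.02, or 0.09 under cyclic loess), EPAS1 (0.13), ARNT (0.15) and PPARD (0.24) were not called (values named after they were seen). The median was 0.70 log2 units, and 9.1% of all tested probe sets were called higher. The list was chosen with earlier results of these data known, so its counts are a description. Besides DDIT3 (3.56 ± 0.09, SE; limma adjusted p 0.000296), ATF3 rose by 1.83 ± 0.09 (adjusted p 0.000597) and CEBPB, which encodes the bZIP factor C/EBP-beta, by 1.34 ± 0.09 (adjusted p 0.000958). ATF4 itself read 11.7 on both LY101-4B arrays and 10.7 on both vehicle arrays, and it was called higher, as were XBP1 (1.30) and ATF6 (1.08), which act in the unfolded protein response and were also named after their values were seen. Of the 4 that did not pass, 3 encode subunits of hypoxia-inducible factors. Only RNA was measured, so neither these values nor those of the factors that rose show protein level or activity. Without vehicle replicate 2 the count called higher was 8 of 18.

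Target genes of these factors outside the secreted list moved unevenly too. The target lists were likewise chosen with earlier results known, so their counts are descriptions. Of all tested probe sets 9.1% were called higher and 10.5% lower. All 12 ATF4 targets rose, with a median of 2.09 and a range from 1.15 to 2.92, and all 12 stayed called without each array in turn. SLC7A11, the cystine transporter gene, rose by 2.92 ± 0.11 (SE), CTH, an enzyme gene of cysteine synthesis, by 2.60 ± 0.09, and NUPR1, a stress-induced nuclear protein gene, by 2.38 ± 0.10, each at a limma adjusted p of 0.000395 to 0.00043. Next to them FGF21, STC2 and ADM2, also known as ATF4-responsive, had differences of 0.17, 0.08 and 0.23. FGF21 and STC2 read below the array medians, and the LY101-4B arrays of ADM2 lay on either side of its vehicle pair. The secreted factors with the largest rises, GDF15, INHBE and VEGFA, had differences of 4.01, 2.16 and 1.86. Of 13 measured hypoxia targets 4 rose, 1 fell and 8 did not pass, with a median of 0.09. NDRG1 rose by 1.83 ± 0.10 (adjusted p 0.000673), a size close to that of VEGFA, and the demethylase gene KDM3A by 0.48 ± 0.08 (adjusted p 0.0143). ANKRD37 (0.45) and PFKFB4 (0.43), named after their values were seen, were the other two that rose. LDHA, lactate dehydrogenase A, fell by 0.68 log2 units (-0.68 ± 0.09, SE; adjusted p 0.00502). Without LY101-4B replicate 1 the hypoxia count called higher was 2, and without either vehicle array it was 1. Of 6 PPAR targets, PLIN2, the lipid droplet coat gene, rose by 0.84 ± 0.10 (adjusted p 0.00484) and ACADVL, a fatty acid oxidation enzyme gene, by 0.51 ± 0.08 (adjusted p 0.0114). The other 4 were not called, the median was 0.31, and without either vehicle array 1 of the 6 was called.

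Genes that process secreted precursors rose in part. Of 12 measured, 5 rose, 1 fell and 6 did not pass, with a median of 0.11. Among all tested probe sets 9.1% were called higher and 10.5% lower, and this list was chosen with earlier results known. SEC11C, a catalytic subunit of the signal peptidase that removes signal peptides, rose by 1.49 ± 0.08 log2 units (SE; limma adjusted p 0.000675), with 9.96 and 9.94 on the LY101-4B arrays against 8.48 and 8.44 on the vehicle arrays. The signal peptidase subunit genes SPCS2 (0.48) and SPCS3 (0.42) and the carboxypeptidase gene CPE (0.44), named after their values were seen, rose as well. PAM, whose enzyme amidates peptides such as adrenomedullin, rose by 0.48 ± 0.12 (adjusted p 0.0473), and the proprotein convertase gene PCSK7 fell by 0.49 log2 units (-0.49 ± 0.10, SE; adjusted p 0.0245). The count called higher was 2 without LY101-4B replicate 2 and 1 without either vehicle array, when only SEC11C passed. PCSK7 was not called without LY101-4B replicate 1 or without either vehicle array. The differences themselves moved little without vehicle replicate 1 or 2, when SPCS2 was 0.45 and 0.51, SPCS3 0.39 and 0.45, CPE 0.45 and 0.42, PAM 0.44 and 0.52, and PCSK7 -0.46 and -0.52. All probe sets called higher numbered 755 and 874 in those fits, against 1930 with all arrays. With arrays centred on their medians 2 of the processing genes were called higher, and with all rows tested 1 was.

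Of 18 measured receptors for the 10 factors, 1 rose, 1 fell and 16 did not pass, with a median of -0.02. These counts are near the shares of all tested probe sets called higher (9.1%) and lower (10.5%). RET had no probe set of its own. Some receptors read far below the array medians, such as GFRAL (3.43 to 3.73), CALCRL (3.25 to 3.57) and FLT1 (3.34 to 3.68). Others, such as ACVR1B (7.31 to 7.47) and RAMP1 (7.38 to 7.94), read above them. A receptor that was not called may thus be unchanged or absent. NRP1, a co-receptor for VEGFA, read 5.30 and 5.22 with LY101-4B and 6.02 and 5.92 with vehicle, and fell by 0.72 log2 units (-0.72 ± 0.09, SE; limma adjusted p 0.00523). ACVR2A, a type II activin receptor gene, rose by 0.54 ± 0.12 (adjusted p 0.0291) and was not called without LY101-4B replicate 2 or without either vehicle array. Without LY101-4B replicate 2 the count called lower was 2. In the activin branch, which holds other inhibin subunits, antagonists and SMAD genes, 2 of 15 rose, 3 fell and 10 did not pass (median 0.08). The repressor gene TGIF1 rose by 0.83 ± 0.09 (adjusted p 0.00368) and the signal transducer gene SMAD3 fell by 0.80 log2 units (-0.80 ± 0.09, SE; adjusted p 0.00372). TGFBR3, the co-receptor betaglycan, fell by 0.74 log2 units (-0.74 ± 0.15, SE; adjusted p 0.0215). The pseudoreceptor gene BAMBI (-0.50) fell and the co-receptor gene CRIPTO (0.56) rose, both named after their values were seen. CRIPTO read only 3.20 and 3.28 with LY101-4B and 2.79 and 2.58 with vehicle, far below the array medians. It is not known whether these values were above background. CRIPTO has near-identical copies in the genome, so its value is uncertain, and it was not called without vehicle replicate 2 or without either LY101-4B array. TGFBR3 and BAMBI were not called without either vehicle array, leaving 1 called lower, and without LY101-4B replicate 1 or vehicle replicate 2 only TGIF1 was called higher.

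Of 18 measured relatives of the 10 factors, from the TGF-beta, FGF, VEGF, angiopoietin-like and calcitonin families, 1 rose, 0 fell and 17 did not pass, with differences from -0.23 to 0.43 and a median of -0.002. Over all tested probe sets 9.1% were called higher and 10.5% lower, so the count of 1 higher is near the background. The one that rose was VEGFB, by 0.39 ± 0.09 log2 units (SE; limma adjusted p 0.036), and it was not called without any one of the 4 arrays. Among 27 other secreted factors often raised in stressed cells, 7 rose, 1 fell and 19 did not pass (median 0.04). MANF, a secreted endoplasmic reticulum protein gene, rose 2.83-fold (limma adjusted p 0.000675), the EGF-like ligand gene HBEGF 2.67-fold (adjusted p 0.000812) and the cytokine gene LIF 2.17-fold (adjusted p 0.00158). CCN1, a matricellular protein gene named after its values were seen, was the one that fell (-0.88). GDF15, INHBE and VEGFA had larger differences than any of these 27, but the 10 factors were chosen with results of these arrays known.

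**Figure D4:**
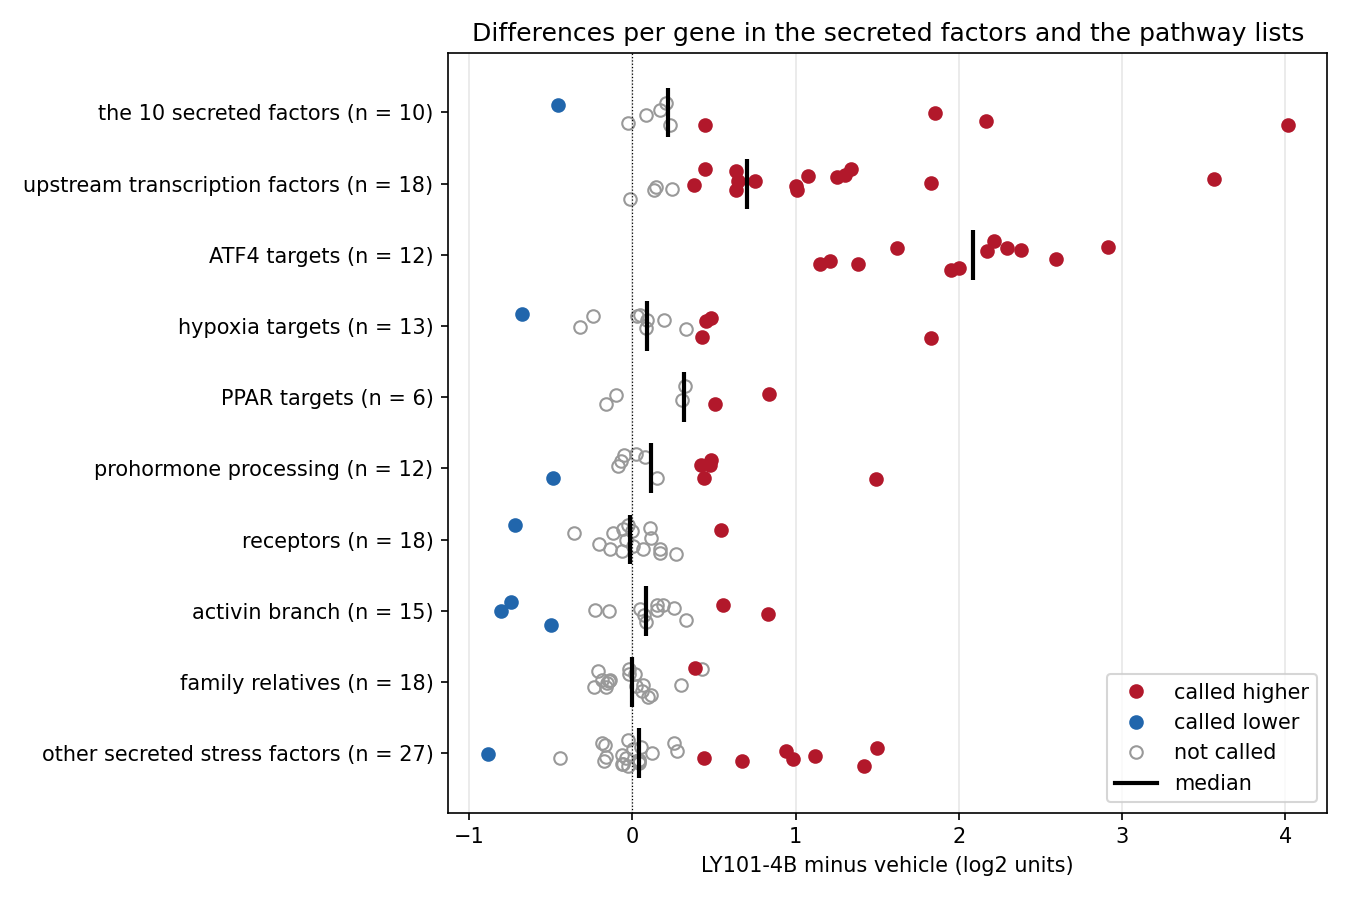
Difference of LY101-4B minus vehicle in log2 units (horizontal axis) for each gene of the 10 secreted factors and of 9 pathway lists, with filled points for called genes, open points for genes not called and a black line at each list's median. All 12 ATF4 targets lie at 1.15 or higher, while receptors and family relatives gather near 0.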

How the data were processed

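Per the submitters' processing notes, the authors deposited log2 expression values made with RMA, which corrects background, quantile-normalises arrays and summarises probes per probe set. Version, probe set definitions and filters were not given in the sources used here. Because RMA makes arrays alike in distribution, a difference is relative to the other probe sets, and changes at low signal are compressed. Per the labels' protocols, RNA was labelled with a FlashTag Biotin HSR kit. Of 33297 rows, 21214 probe sets with a gene symbol were tested, and 19460 with 1 symbol could be named through GEO's platform annotation. No table column was left unmapped (0).

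A linear model with treatment as its only term was fitted with limma 3.58.1 in R 4.3.3 (lmFit, eBayes, 2 residual degrees of freedom, prior worth 3.75), 2-sided, with Benjamini-Hochberg adjustment over all tested probe sets at 0.05. The fit was tested on simulated data. Array number limits the precision. The members and the 9 gene lists were chosen with earlier results of these data known. Of each list, up to 3 called genes with the largest difference were named; others are marked. List genes without a single-symbol probe set were not analysed here. Alternatives were another normalization, centring, row filters, variance priors, a replicate block, probe set averaging and leaving out each array.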

Additional observations from a re-analysis of the deposited data

How the results depend on the processing

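GDF15, INHBE and VEGFA kept direction and call under each alternative that tested them (INHBE was not among the brighter 50% of probe sets). Testing all rows gave 1162 probe sets called higher and 1271 lower, with 0 of the 10 factors called lower. ADM and STC1 had adjusted p of 0.0674 and 0.086 there, and STC1 0.0547 with median centring. With the brighter 50% only 2 factors, VEGFA and GDF15, were called higher, since fewer were tested. The median of the 10 was 0.19 under cyclic loess and 0.15 with median centring. Leaving out 1 array gave 755 to 1899 probe sets called higher and 811 to 2467 lower, 3 to 4 factors higher, 0 to 1 lower and medians of 0.24 to 0.29. A fit without 1 array assumes that the lone array varies like the other group. Some uncalled differences changed sign when 1 array was left out. ADM2 ranged from -0.11 to 0.57, FGF21 from -0.001 to 0.34, ANGPTL4 from -0.12 to 0.072, STC2 from -0.087 to 0.25 and HIF1A from -0.15 to 0.12, and HIF1A was 0.09 under cyclic loess. The cause was not tested. The samples share only a replicate number, with a correlation of same-numbered deviations of 0.12 over 2 pairs. With the replicate block 2024 probe sets were called higher and 2312 lower, and the same 5 factors were called.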
